A study of Rattus norvegicus with 6 samples.

Results

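Genes for islet hormones and related gut and neural peptides were examined in AR42J, a rat line that originated in a tumour of exocrine (acinar) pancreas, with and without the synthetic glucocorticoid dexamethasone. The 10 genes were Ins1, Ins2, Iapp, Gcg, Sst, Ppy, Pyy, Npy, Gast and Cck, chosen by symbol, and each had 1 probe set on the Affymetrix Rat 230A array, which measured 10411 named genes with 15866 probe sets analysed in all. All cultures came from stocks frozen at passage 29, were plated for 24 h with 20% serum, and then spent 48 h in medium with 5% serum and either no dexamethasone (control, n = 3) or 100 nM dexamethasone (n = 3). The work was repeated 3 times over 5 months, and each of the 6 cultures gave total RNA for its own array. The comparison asks whether dexamethasone altered the levels of these messages in a line of acinar origin.

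In the islet, beta cells make insulin and amylin, alpha cells make glucagon, delta cells make somatostatin and PP cells make pancreatic polypeptide. Rats carry a pair of insulin genes, Ins1 and Ins2. Pancreatic polypeptide, peptide YY and neuropeptide Y form one peptide family, and gastrin and cholecystokinin, which share the end of the chain that binds their receptors, form another. All are made as larger precursors that convertases cut inside dense-core granules. Acinar cells make digestive enzymes instead. Cholecystokinin stimulates enzyme secretion by the pancreas, and somatostatin and pancreatic polypeptide restrain it, by a direct or an indirect route.

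Promoter sequences from RefSeq (rat assembly GRCr8, 250 bases before to 50 after the annotated start) were matched for 9 of the 10 genes, all but Cck. Those of Ins1, Ins2 and Npy are shown because the insulin genes are a pair of related copies, and because Npy was one of the 3 genes whose change could be tested. Capitals mark matches, on either strand, to GCCATCTG (the E box of the insulin promoters), TGACGTCA (the cyclic AMP response element) or TGTTCT (the 6 bases in each arm of a glucocorticoid response element). The windows are chr1:261185869-261186168 on the plus strand for Ins1, chr1:207273756-207274055 on the minus strand for Ins2 and chr4:80211861-80212160 on the plus strand for Npy, each printed 5′ to 3′ along its gene.
Ins1: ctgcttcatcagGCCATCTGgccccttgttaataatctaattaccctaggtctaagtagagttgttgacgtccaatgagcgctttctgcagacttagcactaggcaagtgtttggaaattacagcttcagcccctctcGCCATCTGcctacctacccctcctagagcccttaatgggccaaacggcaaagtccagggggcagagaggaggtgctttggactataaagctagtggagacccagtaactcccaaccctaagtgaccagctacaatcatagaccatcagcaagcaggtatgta
Ins2: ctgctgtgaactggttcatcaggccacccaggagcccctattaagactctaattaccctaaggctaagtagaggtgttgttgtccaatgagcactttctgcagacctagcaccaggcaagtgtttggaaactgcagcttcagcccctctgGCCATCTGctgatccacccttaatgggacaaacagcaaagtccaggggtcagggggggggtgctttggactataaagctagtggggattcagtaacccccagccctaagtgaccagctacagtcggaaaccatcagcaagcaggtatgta
Npy: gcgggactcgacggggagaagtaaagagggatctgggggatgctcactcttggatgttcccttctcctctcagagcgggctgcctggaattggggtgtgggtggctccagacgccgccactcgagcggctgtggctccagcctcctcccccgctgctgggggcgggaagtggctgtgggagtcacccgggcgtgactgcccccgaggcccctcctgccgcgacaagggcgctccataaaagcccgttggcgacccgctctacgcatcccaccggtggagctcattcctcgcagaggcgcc
The Ins1 and Ins2 windows were identical at 254 of 287 aligned positions (88.5%). GCCATCTG occurred in Ins1 at positions -238 to -231 and -112 to -105 and in Ins2 at -100 to -93, counted from the start as 0, and in none of the other 7 promoters. It occurs in 1.23% of 33469 rat promoters of this length. TGACGTCA occurred among the 9 in Sst alone (1.83% of all promoters). TGTTCT occurred in Gcg and Ppy (20.7% of all promoters), and in neither insulin promoter nor that of Npy. These are matches of letters in a short window, and binding was not measured.

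Signals are MAS5 values on a linear scale, each array having been scaled to the same trimmed mean (500.1), so they are shares of an array's total rather than amounts per cell. A background level was set for each array from 27 probe sets for bacterial (Bacillus subtilis) genes, taking the brightest of them. Control arrays 1 to 3 had levels of 54.5, 97.3 and 51.7, and dexamethasone arrays 1 to 3 had 100.2, 83.7 and 115.9. Over the array, 61.9% of probe sets were above background on all 6 arrays and 16.1% on none. Of 13 acinar markers on the array, all 13 were above background on all 6 arrays, among them Ctrb1 (chymotrypsinogen B) and Ptf1a (an acinar transcription factor).

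Most of the hormone genes gave little or no signal, and none changed detectably with dexamethasone. Ins1, Cck and Npy were above background on all 6 arrays. Ins2 and Ppy were above it on 2 arrays each and Sst on 1, while Gcg, Iapp, Pyy and Gast were at background on all 6. The count of genes above background on all 6 arrays rests on the level chosen: at the 90th percentile of the control probe sets it was 5 in place of 3, since Ins2 and Ppy joined. In every one of the 10 genes the control and dexamethasone values overlapped. Groups did not overlap for 39.2% of all 15866 probe sets. In RNA from whole cultures, fewer cells carrying a message and less message per cell cannot be told apart. A probe set at background shows that the message was not detectable at this sensitivity, not that it was absent.

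**Figure D1:**
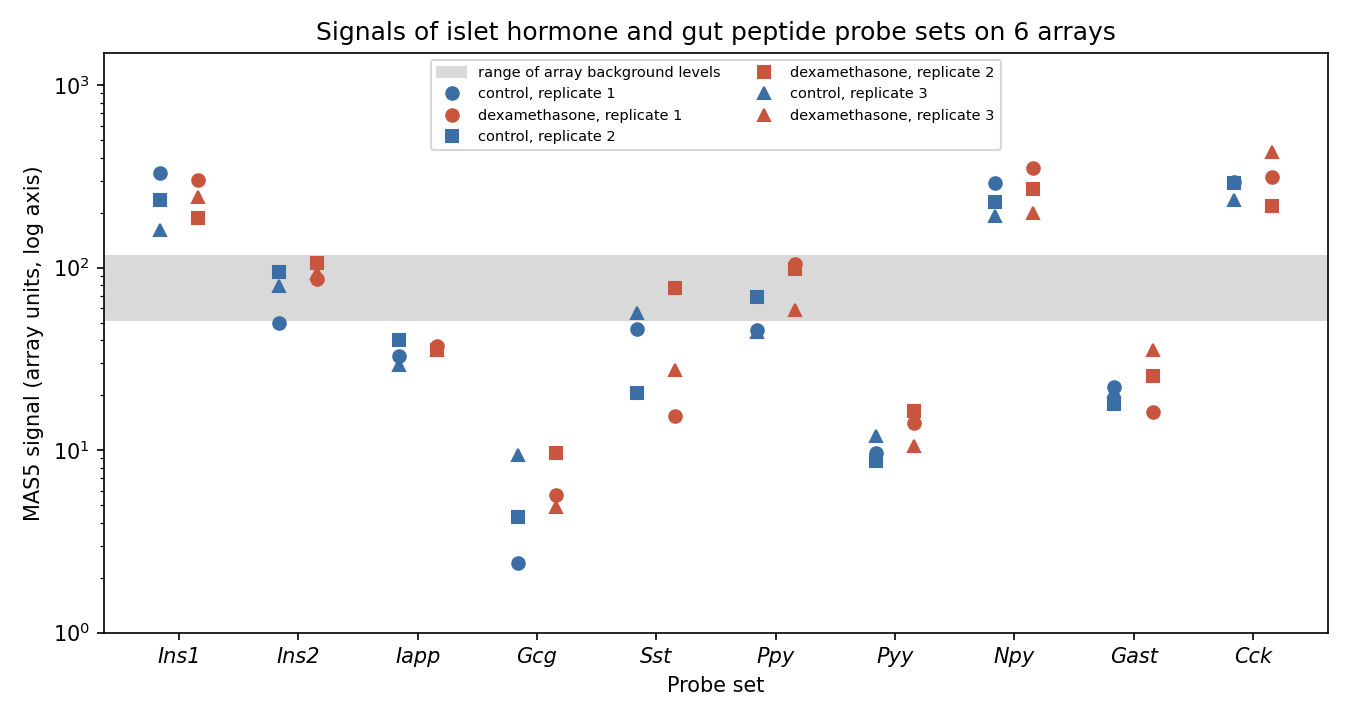
MAS5 signal (log axis, array units) of the 10 probe sets on 3 control arrays (blue) and 3 dexamethasone arrays (red), with the shape of a point giving the replicate number. The grey band spans the arrays' background levels, 51.7 to 115.9. Ins1, Npy and Cck lie above the band on every array, Ins2, Ppy and Sst reach into it, and the other 4 lie below it.

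Of the beta cell hormones, Ins1 was the one detected throughout. Controls 1 to 3 gave signals of 330.2, 235.2 and 160.7, and cultures 1 to 3 with dexamethasone gave 303.2, 187.7 and 243.7. The treated values all lay inside the range of the controls. The group means were 242.0 ± 85.0 and 244.9 ± 57.8 (SD, n = 3 each).

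Ins2, the counterpart of the insulin gene of most other mammals, gave 49.5, 95.2 and 79.1 in controls and 87.1, 106.6 and 93.1 with dexamethasone. Control 3 and dexamethasone 2 were above their arrays' background, and the other 4 values were below. Pairs here and below are arrays of the same replicate number, and no label says that the number marks a pair. The treated value was higher in all 3 pairs, by 0.82, 0.16 and 0.24 on the log2 scale, but control 2 exceeded treated arrays 1 and 3. Probe and message sequences were not used here, so whether either insulin probe set also takes up message of the other gene was not tested, and the share of each gene in the Ins1 signal is uncertain. Iapp encodes amylin, which beta cells release together with insulin. It gave 32.8, 40 and 29.4 in controls and 37.2, 35.4 and 35.3 with dexamethasone, below background everywhere.

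Gcg, whose precursor yields glucagon in alpha cells and the glucagon-like peptides in the gut, was far below background on all 6 arrays. Its signals were 2.4, 4.3 and 9.4 in controls and 5.7, 9.7 and 4.9 with dexamethasone. Sst, the somatostatin gene of delta cells, gave 45.9, 20.5 and 56.7 in controls and 15.4, 77.6 and 27.4 with dexamethasone. Control 3 alone passed its array's background, and the pairs disagreed in direction, at -1.58, 1.92 and -1.05 on the log2 scale. Neither gene thus had a level from which a change could be read.

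In the neuropeptide Y family the 3 genes differed in whether they were detected. Npy, a neuropeptide of sympathetic nerves and the brain, gave 290.5, 229.9 and 191.4 in controls and 349.7, 270.9 and 200.3 with dexamethasone. The treated value was the higher in all 3 pairs, by 0.27, 0.24 and 0.07 on the log2 scale. In both groups array 1 was highest and array 3 lowest, with a spread of 0.30 and 0.40 log2 units (SD). The limma fit, which takes out differences between replicate numbers, gave a change of 0.19 ± 0.18 (SE, adjusted p = 0.438). Ppy, which encodes pancreatic polypeptide, gave 45.7, 69.0 and 44.4 in controls, all at background. With dexamethasone it gave 104.6, 97.8 and 58.5, of which the first and second were above background. Treated array 3 lay below control 2, so the groups overlapped. Ppy was too dim for the main test and was not called with all probe sets included (adjusted p = 0.219). Pyy, encoding the gut hormone peptide YY, was at background throughout, with 9.7, 8.7 and 11.9 in controls and 14.1, 16.3 and 10.5 with dexamethasone.

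Of the gastrin family, Cck was detected and Gast was not. Cck, which encodes cholecystokinin, gave 295.3, 291.8 and 235.3 in controls and 315.7, 216.5 and 430.9 with dexamethasone. Treated array 3 was the highest and treated array 2 the lowest of the 6, so the controls lay inside the treated range. The means were 274.1 ± 33.7 and 321.0 ± 107.3 (SD, n = 3 each). Gast, the gastrin gene, gave 22.1, 18.0 and 21.2 in controls and 16.1, 25.5 and 35.3 with dexamethasone, all below background.

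Of the 10 probe sets, 3 reached the signal filter of 147.6 and entered a limma fit over 9520 probe sets. Of these 3, limma called 0, and 0 had an unadjusted p under 0.05, beside 37.1% of all probe sets tested that passed an adjusted p of 0.05. The log2 change, dexamethasone minus control, was 0.05 ± 0.22 for Ins1 (SE, adjusted p = 0.88), 0.18 ± 0.24 for Cck (adjusted p = 0.604) and 0.19 ± 0.18 for Npy (adjusted p = 0.438). The 95% intervals of this fit are for ratios of signals under the main settings. They ran from 0.730-fold to 1.47-fold for Ins1, from 0.771-fold to 1.66-fold for Cck and from 0.864-fold to 1.51-fold for Npy. A doubling of the signal lay outside each of these 3 intervals. Whether the message changed by the same factor as the signal was not tested. Over 12 alternative settings the adjusted p ranged from 0.482 to 0.91 for Ins1, 0.188 to 0.833 for Cck and 0.192 to 0.817 for Npy. The sign was not settled: with arrays scaled to the hybridization controls all 3 changes were negative (-0.20, -0.07 and -0.06), and without replicate 3 those of Ins1 and Cck were -0.22 and -0.17. Without replicate 2 the change of Cck was 0.48 (adjusted p = 0.188).

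**Figure D2:**
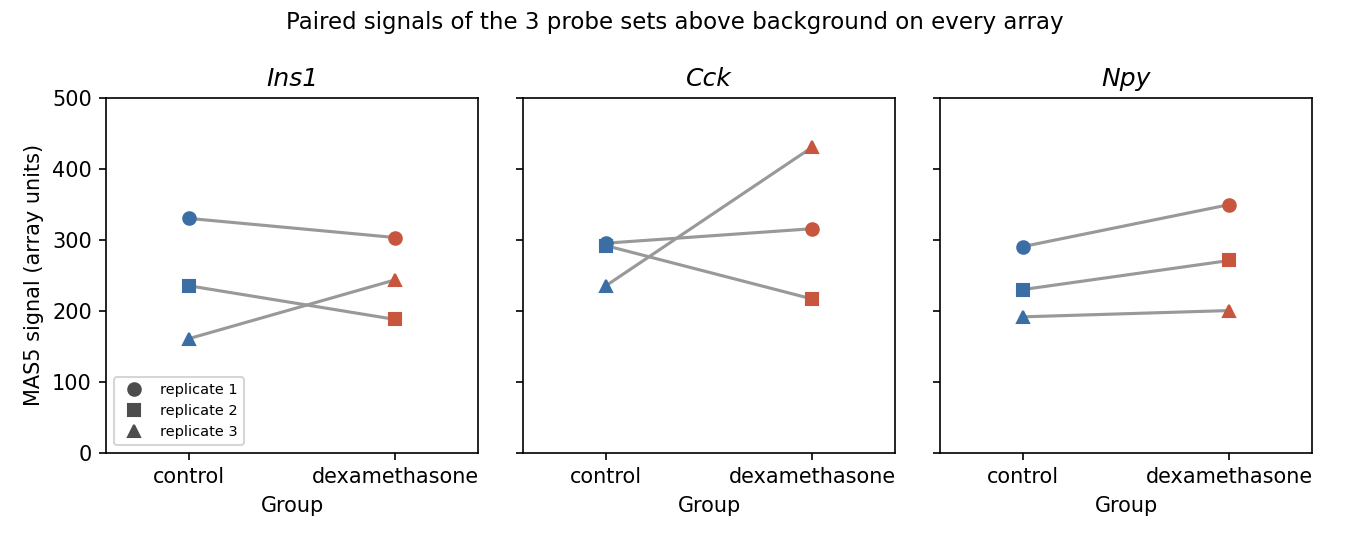
MAS5 signal (linear axis, array units) of Ins1, Cck and Npy, with a line from the control to the dexamethasone culture of each replicate number. Lines for Ins1 and Cck cross and run in both directions, whereas all 3 lines for Npy rise, by 0.07 to 0.27 log2 units.

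The other 7 probe sets were too dim for that test. With the filter removed, all 10 entered a fit over 15866 probe sets, and limma again called 0, with 0 at an unadjusted p under 0.05, where 20.9% of all probe sets passed. Ppy had the largest change, 0.70 ± 0.35, with an interval from 0.911-fold to 2.89-fold. Its controls were all at background, and with background levels in place of those dimmer signals the ratio was 1.30-fold. That ratio keeps the signal of treated array 3 (58.5), itself at background. The change of Ins2 was 0.40 ± 0.32 (adjusted p = 0.434), with an interval from 0.784-fold to 2.23-fold. The fit gave 0.49 ± 0.62 for Gcg and 0.42 ± 0.50 for Pyy. It gave 0.26 ± 0.48 for Gast, 0.09 ± 0.40 for Iapp and -0.23 ± 0.70 for Sst. Intervals were wide, from 0.508-fold to 3.91-fold for Gcg and from 0.269-fold to 2.69-fold for Sst, since signals at background vary greatly on a log scale. For Gcg, Iapp, Pyy and Gast, which were at background in both groups, these numbers describe noise and are no fold change of the message. Those of Ppy, Ins2 and Sst rest mostly on values at background and are no firm fold change either. The background level was higher on treated arrays 1 and 3 (100.2 and 115.9) than on controls 1 and 3 (54.5 and 51.7). Its part in the values of the dim genes was not tested.

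**Figure D3:**
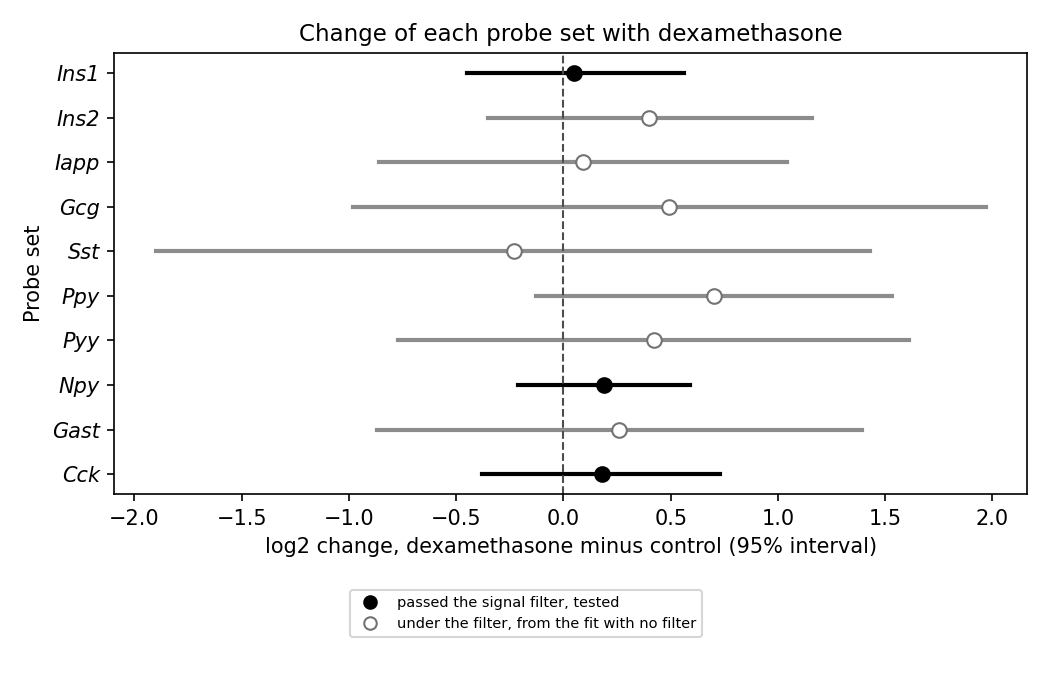
Log2 change (dexamethasone minus control) of each probe set with its 95% interval, filled for the 3 genes past the signal filter and open for the 7 under it, whose values come from the fit with no filter. Every interval includes 0, and those of the dim genes are the wider ones.

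Genes with the nearest profile were sought for the 3 detected genes among 6849 other genes that passed the signal filter and were above background on all arrays, by the root mean square difference of log2 signals centred over the 6 arrays. For Cck these were Mfge8, a milk fat globule protein that binds dying cells (difference 0.084), Ccdc86 (0.086) and Lig4, a DNA ligase (0.104), all with their highest signal on dexamethasone array 3. For Npy they were Hps1, needed for lysosome-related organelles (0.096), Plpp1, a lipid phosphatase (0.111), and Hk2, a hexokinase (0.121). For Ins1 no profile came as close, with Rtn4rl1 at 0.179, Fxr2 at 0.186 and Wnt2b at 0.187. Adjusted p-values of these 9 genes for dexamethasone ran from 0.252 to 0.716 by limma. The profiles rest on 6 arrays and are given as a description.

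Genes around the hormones were taken from lists of the islet and peptide pathway, with 1 probe set per gene, and read against 7051 genes tested, of which 17.0% rose and 21.4% fell (median log2 change -0.04). Transcription factors that specify endocrine cells were mostly too dim: of 11 on the array, 3 were tested and limma called 0 (1 lower at an unadjusted p under 0.05), with a median of -0.20. Of the 11, 4 were above background on all 6 arrays (Pax4, St18, Hhex and Foxa2), 2 on none, and the others on some. The 2 at background throughout were Pdx1, which drives the insulin genes, and Neurog3, which starts the endocrine programme. Pax4, a factor of beta and delta cell precursors, gave 103.2 ± 33.3 and 140.8 ± 33.2 and was under the filter. Isl1, an islet factor that was above background on 5 arrays, gave 70.4 ± 18.1 and 119.7 ± 19.7 and was also under it. Hhex, a factor of delta cells and gut endoderm, went from 515.6 ± 56.0 to 461.3 ± 144.1 and did not pass, and neither did St18 (387.8 ± 50.3 and 484.2 ± 165.2). Neurod1, which binds the insulin E box, was above background on 3 control and 2 treated arrays but under the filter (187.3 ± 76.6 and 101.4 ± 26.6). Foxa2, a factor of gut endoderm, went from 3106 ± 321 to 2424 ± 191 and did not pass (-0.36 ± 0.13, adjusted p = 0.0559), though it was past the threshold and lower in 4 of 12 alternative settings. Of 6 measured genes of a list for glucose sensing and related functions of beta cells, 3 were tested. Limma called 0 and had 0 at an unadjusted p under 0.05 (median 0.25). Among them, the calcium channel gene Cacna1d gave 361.3 ± 47.8 and 361.1 ± 109.2. The other 2 tested were Kcnj11, a subunit of the ATP-sensitive potassium channel (166.5 ± 23.4 and 199.2 ± 20.8), and Glp1r (148.8 ± 14.6 and 179.1 ± 40.5). Glp1r, the receptor of glucagon-like peptide 1, is also counted among the receptor genes below. The 3 tested genes were above background on all 6 arrays, and Slc2a2, the glucose transporter of beta cells, was the 1 gene of the list above it on none.

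Of the genes that package and process peptides, 14 of 18 were above background on all 6 arrays, beside 7220 of 10411 genes over the array. Qpct alone was at background on all 6. Of 18 on the array, 14 were tested, 5 rose, 3 fell and 6 did not pass (median -0.05). Chga, the granule protein chromogranin A, was above background on all arrays and did not pass (-0.12 ± 0.19, adjusted p = 0.654). The related Chgb, chromogranin B, was among the risers, going from 2762 ± 266 to 4092 ± 623 (0.56 ± 0.12, adjusted p = 0.00558 by limma). The largest rises were in Ptprn (0.77 ± 0.12) and Ptprn2 (0.61 ± 0.13), proteins of the dense-core granule membrane, and in Furin, a convertase of the Golgi (0.73 ± 0.12). Syt7, a calcium sensor of exocytosis, fell by 0.98 ± 0.21, and Cadps, which primes granules, fell by 0.81 ± 0.12. Cpe, which trims cut hormone precursors, fell from 7651 ± 292 to 4618 ± 119 (-0.73 ± 0.09, adjusted p = 0.0004). With arrays scaled to the hybridization controls, 3 genes of this list rose and 6 fell. Pcsk2, the convertase that cuts proglucagon and proinsulin, was under the filter and is named after its values were seen. Its signals were 212.6, 24.6 and 261.7 in controls and 25.7, 6.9 and 17.9 with dexamethasone. Control 2 and all treated arrays were at background. With background levels in place of the treated signals, the ratio of control to treated was 1.12-fold. That ratio keeps control 2 at 24.6, itself at background, so it is no firm bound on a fall. Control 2 lay below treated array 1, so the groups overlapped. With no filter limma called it lower (adjusted p = 0.00672), but that call rests in part on differences between values at background.

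Of 18 receptor genes for these peptides on the array, 12 were tested, 2 rose, 1 fell and 9 did not pass (median 0.28). Sstr2, a somatostatin receptor of the pancreas, fell from 1531 ± 319 to 900.5 ± 80.4 (-0.75 ± 0.17, adjusted p = 0.00778), and its other probe set fell by 1.91. Sstr4 rose by 0.67 ± 0.21 and Sstr3 by 0.48 ± 0.16. Their calls were lost with hybridization control scaling, with no filter and without replicate 1 or 2, and that of Sstr3 also without replicate 3 and with no replicate block. With the signal filter raised to the median, Sstr4 fell under it and was not tested. Cckbr, which binds both gastrin and cholecystokinin, did not pass (0.31 ± 0.13, adjusted p = 0.0856). Npy4r, the receptor of pancreatic polypeptide, gave 161.1 ± 31.5 and 212.9 ± 87.2 (adjusted p = 0.416), and Insr, the insulin receptor, 247.7 ± 32.6 and 275.8 ± 48.9 (adjusted p = 0.549). Gcgr, the glucagon receptor, was at background on all 6 arrays.

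Some other secreted peptides did change, in a list that was chosen with earlier results of these data known. Of 34 measured, 23 lay under the filter, and of the 11 tested 4 rose, 3 fell and 4 did not pass (median 0.27). Nppc, C-type natriuretic peptide, fell from 1012 ± 286 to 93.0 ± 10.6 (adjusted p = 5.5e-06). Since 1 treated array alone was above background, the fall is given as at least 9.25-fold, with background levels in place of dimmer signals (fitted log2 change -3.42 ± 0.21). Guca2b, uroguanylin, fell from 4067 ± 204 to 627.9 ± 241.2 (-2.78 ± 0.23, adjusted p = 3.2e-05). The probe set that stood for Calca, the gene of calcitonin and its related peptide, fell by 1.18 ± 0.16, whereas its other probe sets rose by 1.05 and 4.63. Trh, thyrotropin-releasing hormone, rose by 1.65 ± 0.24, from 205.9 ± 130.1 to 598.9 ± 385.6, a call lost with no replicate block. Treated array 2 of Trh (260.4) lay below controls 1 and 3 (291.1 and 270.5), so its groups overlapped. Gal, galanin, rose by 1.16 ± 0.20, from 171.5 ± 74.9 to 364.9 ± 95.9. For both Trh and Gal, control 2 was at background. The other risers were Pmch, melanin-concentrating hormone (0.76 ± 0.24), and Sct, secretin (0.61), and both calls were lost with hybridization control scaling, with no filter and without replicate 1 or 3. With the signal filter raised to the median, Pmch fell under it and was not tested. Whether the hormones differed from these peptides in their response was not tested. The acinar markers were likewise listed with earlier results known. Of the 12 tested, 9 rose and limma called 0 lower, with 0 lower at an unadjusted p under 0.05 (median 0.60). Among all 7051 genes tested, 17.0% rose and 21.4% fell. Prss1, a trypsinogen, rose by 4.42 ± 0.11, Cela2a, an elastase, by 1.81 ± 0.10, and Sycn, syncollin of the zymogen granule, by 1.76 ± 0.12. With quantile normalization 2 acinar markers fell, and that scaling ended the call of Ctrb1, which otherwise rose by 0.46 ± 0.09.

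**Figure D4:**
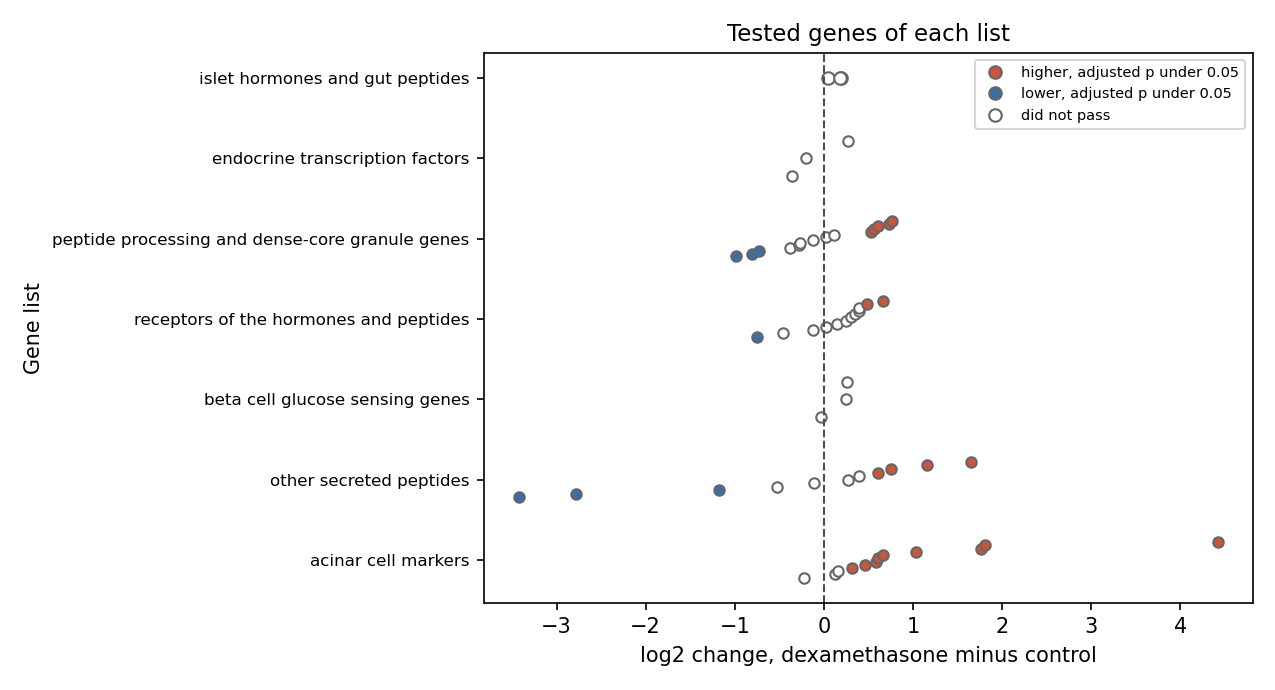
Log2 change (dexamethasone minus control) of every tested gene, 1 point per gene, in the islet hormone and gut peptide set (3 tested) and in 6 gene lists. Red and blue points passed an adjusted p of 0.05. The 3 hormone points lie between 0.05 and 0.19 and are open, while other secreted peptides run from -3.42 (Nppc, at background on 2 of 3 treated arrays) to 1.65 (Trh, whose groups overlapped).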

How the data were processed

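Total RNA from 6 AR42J cultures was hybridised to Rat 230A arrays. The deposited values are intensities, 1 linear MAS5 signal per probe set and array. The submitters' processing notes name GCOS and MAS5; their versions and the scaling settings are not given in the sources used here. Detection calls were not used here. MAS5 subtracts background and mismatch signal, so low signals are noisy. No pair of arrays shared more than 47 identical values.

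Gene symbols came from GEO's annotation of the platform and were brought up to date by gene identifier (NCBI, GRCr8). Signals were taken to log2 after 4 values were set to 0.1, with no further normalization. Probe sets whose mean log2 signal reached the 40th percentile (147.6) were fitted in limma 3.58.1 (R 4.3.3; treatment plus replicate number as a block, intensity trend, 2-sided, Benjamini-Hochberg over 9520 probe sets, threshold 0.05), and the code was tested on simulated data. The design text speaks of pairs but no label says that the replicate number marks them. Deviations of same-numbered arrays from their group means correlated at -0.0951, 0.112 and 0.211. Nothing in the labels says more about how separate the cultures were, and the p-values cover the spread between these samples in 1 cell line. The number of arrays limits the precision.

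All 10 members were named. From each list, genes past the threshold were named by size of change, up to 3 in each direction, with the gene of highest mean log2 signal. Sct, Pcsk2, Neurod1, Pdx1, Isl1 and the other list genes named for their role fall outside this rule and were chosen after their values were seen. A gene was represented by its probe set of highest mean log2 signal. The members and lists were chosen with earlier results of these data known. Alternatives were 4 other array scalings, 2 other filters, no intensity trend, no replicate block, a pseudocount of 50, leaving out each replicate number, and 2 other background levels.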

Additional observations from a re-analysis of the deposited data

How the results depend on the processing

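Members called higher and members called lower were 0 under the main settings and all 12 alternatives, including no replicate block, so the pairing changed no call of a member. Scaling arrays to the hybridization controls, which moved the median change over the probe sets tested from -0.05 to -0.29, turned the sign of Ins1 (-0.20), Cck (-0.07) and Npy (-0.06). Leaving out replicates gave -0.22 to 0.24 for Ins1, -0.17 to 0.48 for Cck and 0.15 to 0.25 for Npy. Members above background on all arrays numbered 3 at the main level, 3 at a fixed signal of 100 and 5 at the 90th percentile of the control probe sets, where Ins2 and Ppy joined. Over all lists together, 20 of 54 genes tested rose, 9 of them acinar markers, and 7 fell. Over the array, 17.0% of 7051 genes tested rose and 21.4% fell. The rises and falls of the lists were 12 and 14 with hybridization control scaling and 18 and 8 with no replicate block. Leaving out replicates gave 13 (without replicate 1) to 18 rises and 7 to 8 falls. By list, the alternatives gave 0 to 1 fall for endocrine transcription factors (main 0), 3 to 5 rises and 2 to 6 falls for peptide processing genes (5 and 3), 0 to 5 rises and 1 to 2 falls for receptors (2 and 1), 2 to 4 rises and 3 to 4 falls for other secreted peptides (4 and 3; 2 rises without replicate 1), and 7 to 10 rises and 0 to 2 falls for acinar markers (9 and 0). Causes of these shifts were not tested. Signal over background limits the 7 dim hormone genes.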
